A study of Mus musculus with 4 samples.

Results

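The mitochondrial ribosome is built from RNA made inside the organelle and from proteins encoded in the nucleus, and the nuclear genes for those proteins are described here in mouse natural killer (NK) cells. They were chosen by name: rows of the deposited expression table whose symbol begins with Mrpl or Mrps and a number and holds no pseudogene mark. This gave 76 genes of 37305 rows, 47 with a large subunit symbol (Mrpl) and 29 with a small subunit symbol (Mrps). All libraries came from primary NK cells of C57BL/6 mice (postnatal day 56), taken from the spleen and first cultured for 24 hours in IL-15 (50 ng/ml), which keeps NK cells alive. The control group (2 libraries) then received mock treatment and the DKK2 group (2 libraries) DKK2 at 200 ng/ml, each for a further 24 hours. The added factor, Dickkopf 2, is secreted by cells and acts on LRP5 and LRP6, which serve as co-receptors for Wnt ligands. Control and treated cells therefore share the IL-15 culture. The labels do not say whether the replicates came from separate mice or cultures, and the p-values reflect no more than how these 4 libraries vary, which may be technical.

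Mitochondrial ribosomes translate the few proteins encoded by mitochondrial DNA, all of them subunits of the respiratory chain and ATP synthase. The small subunit reads the mRNA, and the large subunit joins the amino acids and releases the chain towards the inner membrane. Many of the proteins have a counterpart in bacterial ribosomes, while others are found only in mitochondria. In lymphocytes the respiratory chain supports activation and growth, and IL-15 is known to raise mitochondrial metabolism in NK cells.

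Values are FPKM, fragments scaled to transcript length and library size. Steps between the lowest values place 1 fragment of a transcript of 1 kb at about 0.0179 FPKM in control replicate 1 and at 0.0446 to 0.0508 FPKM in the others, which had 0.352 to 0.401 of its depth. A 1 kb transcript at 20 FPKM would thus rest on about 1120 fragments in control replicate 1 and on 394 to 448 in the others. All 10 NK markers examined were present in each library, from a lowest value of 34.5 FPKM upwards. Their sums were 16101 and 13583 FPKM in control and 10502 and 9865 FPKM with DKK2, replicate 1 first. Most of this was Gzmb, at 11543 and 9908 FPKM against 6895 and 6115 FPKM. Prf1 was also lower in both DKK2 libraries, while Ncr1, Klrb1c, Klrk1, Klre1, Eomes and Cd244 were highest in DKK2 replicate 1. Other cells were not equally represented. The summed level of 11 myeloid markers came to 32.3 and 406 FPKM without DKK2 and to 4215 and 758 FPKM with it (replicate 1 then replicate 2, as in all pairs of values below). In DKK2 replicate 1 most of this was S100a8, at 1738 FPKM, and S100a9, at 1582 FPKM. These, Lyz2, C1qb, C1qc, Itgam and Ly6g were higher there than in DKK2 replicate 2, while Csf1r, Cd68, Emr1 and Cd74 were lower. For 6 T cell markers the sums were 28.6 and 127 FPKM against 224 and 175 FPKM, and for 6 B cell markers 2.33 and 66.0 FPKM against 188 and 138 FPKM. Erythroid markers summed to at most 2.92 FPKM in any library. Of the myeloid list, 1 gene was at 0 in control replicate 1 and none in the other libraries. RNA of bulk samples cannot tell fewer cells of a type from less RNA per cell, and the part of these other cells in the results was not tested.

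Transcripts of the mitochondrial ribosome were plentiful in every library. Of the 76 genes, 74 reached a mean of 1 FPKM across the libraries and were tested. Their mean levels ran from 11.9 FPKM (Mrpl35) to 519 FPKM (Mrpl33), with a median of 40.3 FPKM, against 13.8 FPKM over all 12275 rows tested. Most of them lay close together: 52 had a mean between 20 and 100 FPKM, 13 were above 100 FPKM and 9 below 20 FPKM. Mrpl33, a small protein of the large subunit with a bacterial counterpart, stood at 537 and 399 FPKM without and 705 and 437 FPKM with DKK2. Its groups overlapped, and its highest value was in DKK2 replicate 1. Mrps21, the most abundant small subunit transcript, was at 393 and 225 FPKM without and 246 and 235 FPKM with DKK2. Here control replicate 1 stood above the 3 other libraries. Mrpl18 stood at 255 and 161 FPKM without DKK2 and at 118 and 213 FPKM with it, with overlapping groups. Mrps23 had 220 and 145 FPKM in control and 169 and 166 FPKM in treated cells. Mrpl20 had 183 and 138 FPKM without and 161 and 103 FPKM with DKK2. In both of these genes control replicate 1 was again the highest. At the low end of the genes tested, Mrpl35 gave 11.2 and 11.9 FPKM without DKK2 and 15.2 and 9.46 FPKM with it, with the controls between the DKK2 libraries. Mrps31 stood at 15.1 and 13.9 FPKM without DKK2 and at 18.1 and 11.5 FPKM with it, and here too the controls lay between the DKK2 libraries. The highest library exceeded the lowest by a median of 1.66-fold per gene, from 1.14-fold in Mrps33 to 2.85-fold in Mrps18c, and by more than 2-fold in 11 of the 74.

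**Figure D1:**
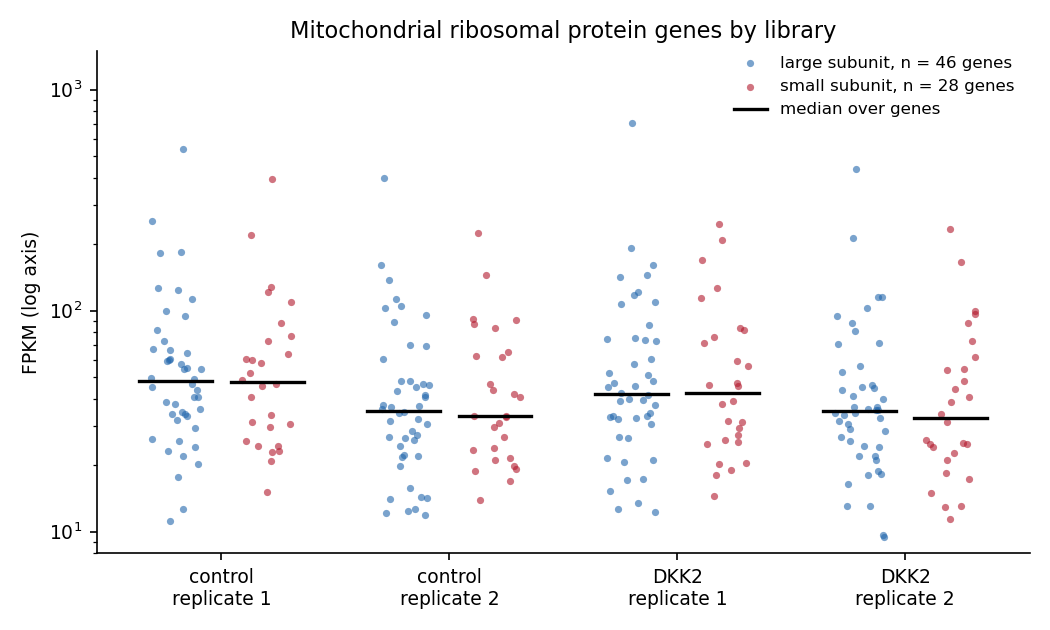
FPKM (log axis) of the 74 genes tested in each of the 4 libraries; blue points are 46 large subunit genes, red points 28 small subunit genes, and black lines their medians. In both groups the medians are higher in replicate 1 (41.9 to 47.9 FPKM) than in replicate 2 (32.7 to 35.3 FPKM), and the subunits lie at like levels within each library.

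No gene of the mitochondrial ribosome passed the test for a difference between DKK2 and control. With limma and Benjamini-Hochberg adjustment over all 12275 rows, 0 of 74 genes were called and the smallest adjusted p among them was 0.9996. Before adjustment, limma gave a p under 0.05 for 0 of the 74 and for 226 of all rows tested. Over all rows tested, 0.0326% were called (4 rows). The median log2 fold change of the 74 genes, on the log2(FPKM + 1) scale as everywhere below (which understates changes of low genes), was -0.07, beside -0.05 over all rows tested, and the median standard error (SE) was 0.32. The estimates were negative for 43 genes (58.1%) and positive for 31, beside 56.4% negative over all rows tested. Both DKK2 libraries lay below both controls in 8 of the 74 genes (10.8%), where 14.8% of all rows tested did so. Both lay above both controls in 1 of the 74 (1.35%), beside 11.8% of all rows tested.

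**Figure D2:**
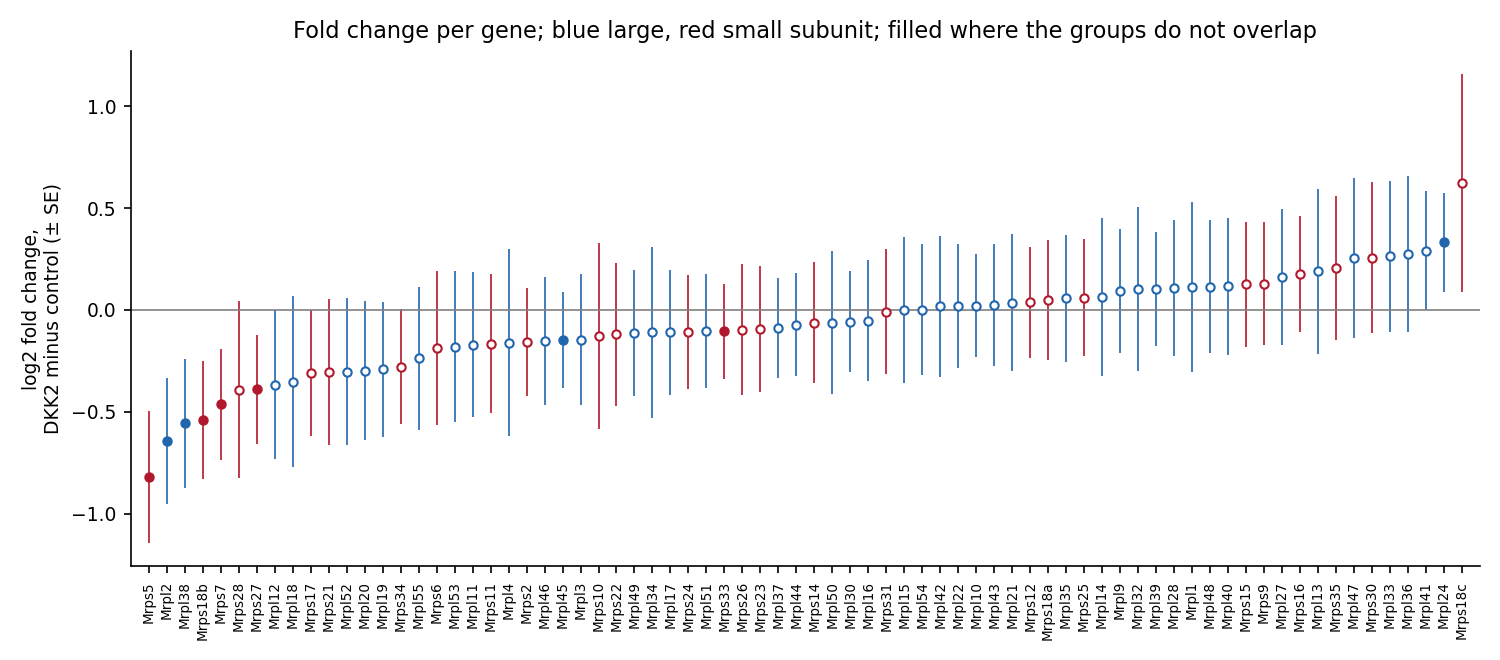
Log2 fold change of DKK2 minus control for each of the 74 genes, sorted, with the SE of the limma fit; blue marks large and red small subunit genes, and filled points are genes whose groups do not overlap. Estimates run from -0.82 (Mrps5) to 0.62 (Mrps18c), and 9 points are filled, 8 of them below 0.

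In the small subunit, 5 genes were lower in both DKK2 libraries than in both controls. Mrps5, the counterpart of a bacterial protein tied to accurate decoding, had 52.0 and 33.0 FPKM with mock and 20.5 and 26.0 FPKM with DKK2 treatment. Its log2 fold change was the most negative of the 74, -0.82 ± 0.33 (SE, n = 2 and 2, 95% interval -1.66 to 0.02, limma adjusted p = 0.9996). Mrps7, which binds the rRNA in the head of the small subunit, had 63.8 and 46.7 FPKM in control and 37.9 and 40.7 FPKM in treated cells (-0.46 ± 0.27). The nearest values of the groups were closer than the 2 controls were to each other. Mrps18b, 1 of 3 paralogues of a single bacterial protein, gave 88.4 and 61.7 FPKM without DKK2 and 46.9 and 54.3 FPKM with it (-0.54 ± 0.29). Mrps27, an RNA-binding protein specific to mitochondria, stood at 22.9 and 16.9 FPKM without DKK2 and at 14.6 and 15.0 FPKM with it (-0.39 ± 0.27). Mrps33, also specific to mitochondria, had 23.3 and 21.5 FPKM in control and 20.3 and 21.1 FPKM in treated cells (-0.10 ± 0.23). In Mrps33 the nearest values of the groups were almost equal. Without control replicate 1 the estimates moved towards 0 by more than 1.5 times, to -0.50 for Mrps5, -0.24 for Mrps7, -0.29 for Mrps18b, -0.18 for Mrps27 and -0.05 for Mrps33.

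In the large subunit, 3 genes were lower and 1 higher in both DKK2 libraries. Mrpl2, whose bacterial counterpart lies near the site of peptide bond formation, gave 72.8 and 48.2 FPKM in control and 34.3 and 41.1 FPKM in DKK2-treated cells (-0.64 ± 0.31). Mrpl38, a mitochondria-specific protein of the central protuberance, gave 34.2 and 22.2 FPKM without DKK2 and 20.6 and 16.4 FPKM with it (-0.56 ± 0.32). In Mrpl38 control replicate 2 was closer to both DKK2 libraries than to the other control. Mrpl45, which anchors the ribosome to the inner membrane near the exit of the nascent chain, stood at 38.6 and 34.9 FPKM without DKK2 and at 32.3 and 33.8 FPKM with it (-0.15 ± 0.24). Mrpl24, whose bacterial counterpart acts early in large subunit assembly, went the other way, at 99.4 and 88.9 FPKM without and 122 and 116 FPKM with DKK2 (0.33 ± 0.24, 95% interval -0.30 to 0.96, limma adjusted p = 0.9996). It was the 1 gene of the 74 with both DKK2 libraries above both controls, and its estimate lay between 0.25 and 0.41 whichever library was left out. With a correction of each library for GC content and length, chosen after the data were seen, the estimate was 0.17 and the groups of Mrpl24 overlapped. Without control replicate 1 the estimates were -0.35 for Mrpl2, -0.25 for Mrpl38 and -0.08 for Mrpl45.

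**Figure D3:**
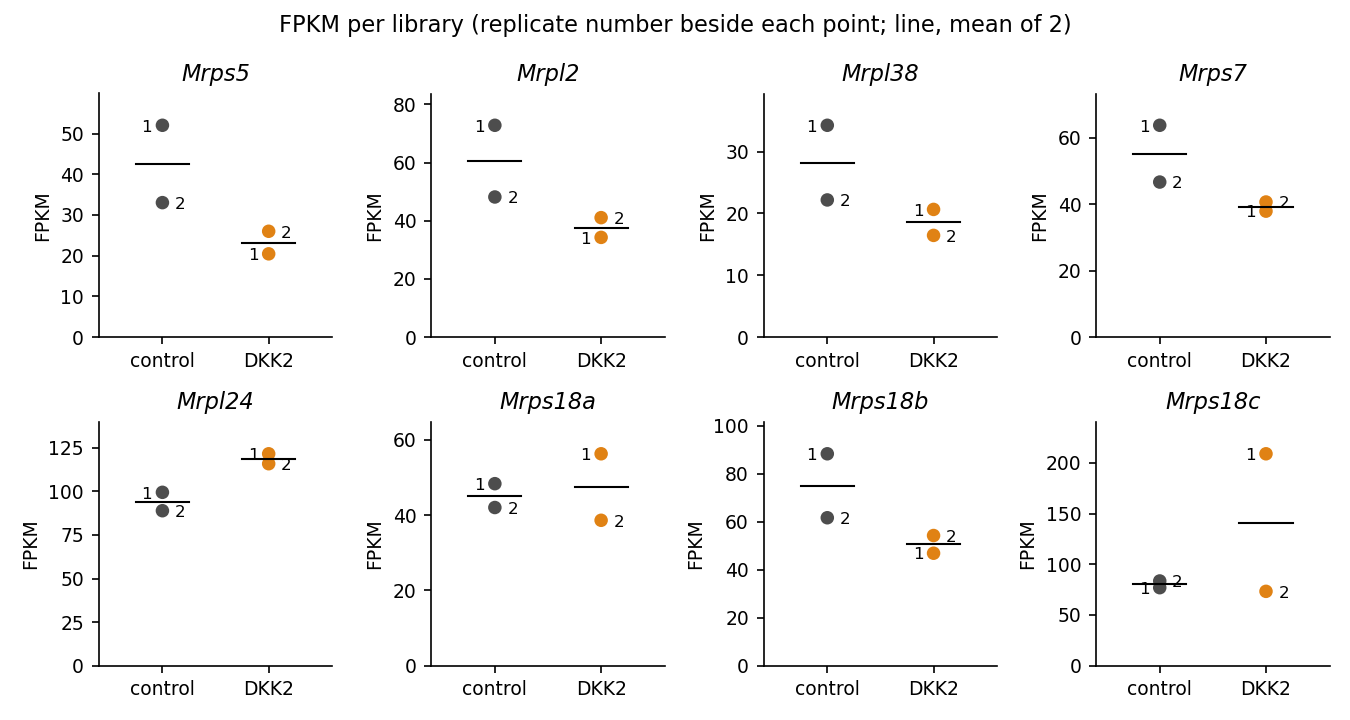
FPKM in each library for 8 genes, controls in grey and DKK2 in orange, with the replicate number beside each point and a line at the mean of 2. The groups do not overlap in Mrps5, Mrpl2, Mrpl38, Mrps7, Mrpl24 and Mrps18b, while in Mrps18c a single DKK2 library, replicate 1 at 209 FPKM, stands apart.

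Of the 3 paralogues Mrps18a, Mrps18b and Mrps18c, the first and last were highest in DKK2 replicate 1 and Mrps18b in control replicate 1. Bacteria have 1 such protein, and in mitochondria the products of Mrps18b and Mrps18c sit at different places of the small subunit while that of Mrps18a belongs to the large subunit. Mrps18c stood at 76.9 and 83.5 FPKM without and 209 and 73.3 FPKM with DKK2 (0.62 ± 0.53). DKK2 replicate 1 alone was high, the other DKK2 library was the lowest of the 4, and without DKK2 replicate 1 the estimate was -0.13. Mrps18a had 48.4 and 42.0 FPKM in control and 56.3 and 38.6 FPKM in treated cells, so that the DKK2 libraries enclosed the controls (0.05 ± 0.29). Its sign turned without control replicate 2 (-0.05) and without DKK2 replicate 1 (-0.22). Mrps18b, given above, was the 1 of the 3 with separate groups, and it was lowest in the same library in which Mrps18a and Mrps18c were highest.

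The promoters of the paralogues hold letters tied to factors of mitochondrial gene expression. They are shown because the paralogues descend from 1 ancestor and had different profiles over the libraries. The sequences are RefSeq's on build GRCm38.p6, another build than the mm9 named for the expression data. Each run holds the 250 bases before the annotated start, 5′ to 3′ on the gene's strand. Mrps18a lies at chr17:46110754-46111003, plus strand, Mrps18b at chr17:35916441-35916690, minus strand and Mrps18c at chr5:100798509-100798758, plus strand. Capitals mark CGCATGCG and TGCGCA (letters of the NRF1 motif, both palindromes, which overlap in Mrps18b), CCGGAAG (ETS factors such as GABPA, on either strand) and CACGTG (the E-box, a palindrome).
Mrps18a: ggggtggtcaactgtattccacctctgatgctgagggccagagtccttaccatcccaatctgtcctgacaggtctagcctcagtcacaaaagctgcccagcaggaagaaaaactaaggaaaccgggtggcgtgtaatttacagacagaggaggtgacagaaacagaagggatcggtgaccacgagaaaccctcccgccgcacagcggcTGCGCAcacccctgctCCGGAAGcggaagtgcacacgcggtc
Mrps18b: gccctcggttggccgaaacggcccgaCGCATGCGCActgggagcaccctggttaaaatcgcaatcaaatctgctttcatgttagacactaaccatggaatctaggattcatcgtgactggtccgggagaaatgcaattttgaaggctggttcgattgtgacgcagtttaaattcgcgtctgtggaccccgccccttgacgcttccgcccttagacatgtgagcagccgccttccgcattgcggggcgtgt
Mrps18c: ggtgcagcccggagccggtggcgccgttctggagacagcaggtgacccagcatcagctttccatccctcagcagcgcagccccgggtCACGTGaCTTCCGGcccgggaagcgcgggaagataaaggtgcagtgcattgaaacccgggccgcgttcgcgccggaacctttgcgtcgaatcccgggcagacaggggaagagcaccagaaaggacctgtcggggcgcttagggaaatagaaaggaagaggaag
Mrps18a holds TGCGCA and CCGGAAG within the last 42 bases before the start. Mrps18b holds the NRF1 letters 224 bases before its start, and Mrps18c an E-box 163 bases and the ETS letters 156 bases before its start. In the window that runs on to 50 bases after the start, all 3 genes hold the ETS letters, and Mrps18a also holds AAGATGGCG, letters of the YY1 motif.

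Stretches of the same kind follow for the gene with the most negative estimate, for another of the lower genes, for Mrpl24, which was higher in both DKK2 libraries, and for Mrpl10, a stalk gene with the same NRF1 letters as Mrps18b. Mrps5 lies at chr2:127587176-127587425, plus strand, Mrps7 at chr11:115603890-115604139, plus strand, Mrpl24 at chr3:87919294-87919543, plus strand and Mrpl10 at chr11:97041332-97041581, plus strand.
Mrps5: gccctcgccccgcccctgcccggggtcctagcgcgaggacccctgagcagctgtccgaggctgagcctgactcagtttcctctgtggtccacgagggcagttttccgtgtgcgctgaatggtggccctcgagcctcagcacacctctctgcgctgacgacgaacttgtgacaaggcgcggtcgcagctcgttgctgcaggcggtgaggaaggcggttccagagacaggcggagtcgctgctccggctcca
Mrps7: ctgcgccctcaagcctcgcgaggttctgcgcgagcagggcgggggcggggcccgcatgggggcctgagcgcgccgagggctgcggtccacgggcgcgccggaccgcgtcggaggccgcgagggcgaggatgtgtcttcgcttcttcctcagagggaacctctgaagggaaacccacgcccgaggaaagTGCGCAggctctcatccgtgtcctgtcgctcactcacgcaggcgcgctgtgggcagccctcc
Mrpl24: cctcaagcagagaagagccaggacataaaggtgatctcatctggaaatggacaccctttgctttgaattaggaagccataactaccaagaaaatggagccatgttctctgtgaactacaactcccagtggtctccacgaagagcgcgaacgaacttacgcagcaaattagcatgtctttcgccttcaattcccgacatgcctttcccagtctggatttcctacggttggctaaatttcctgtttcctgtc
Mrpl10: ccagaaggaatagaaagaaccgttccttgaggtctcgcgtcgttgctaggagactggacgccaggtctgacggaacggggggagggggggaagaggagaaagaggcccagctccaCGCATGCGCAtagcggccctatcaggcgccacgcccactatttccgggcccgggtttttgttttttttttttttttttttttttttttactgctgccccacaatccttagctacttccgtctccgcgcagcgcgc
The stretches of Mrps5 and Mrpl24, whose estimates have opposite signs, hold none of the letters searched, which says nothing of the factors. They differ in base composition, with 66.8% G and C in Mrps5 and 46.8% in Mrpl24.

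Over the family, promoter windows of 300 bases (250 before and 50 after the start) were at hand for 67 of the 76 genes. CCGGAAG on either strand was in 24 of the 67 (35.8%), beside 9.93% of the 27025 genes in the table and 12.9% of its 17492 protein-coding genes. TGCGCA was in 19 (28.4%), beside 8.79% of all genes in the table and 11.0% of the protein-coding ones, and it can overlap CGCATGCG. CGCATGCG was in 7 (10.4%), beside 2.07% and 2.77%, and AAGATGGCG on either strand in 8 (11.9%), beside 1.64% and 2.14%. The E-box CACGTG, bound by MYC among others, was in 5 (7.46%), beside 8.09% and 8.91%. At least 1 of these was in 44 of the 67 (65.7%), beside 24.5% and 29.8%. The 24 tested genes with CCGGAAG had a median log2 fold change of -0.10 and the 41 without it -0.06, and for TGCGCA the medians were -0.08 (18 genes) and -0.06 (47 genes). For CGCATGCG the order was the other way, with 0.02 (7 genes, 2 lower) against -0.08 (58 genes), as for AAGATGGCG with -0.04 (8 genes) against -0.06 (57 genes). For CACGTG the medians were -0.09 (5 genes) and -0.06 (60 genes). A match is a description of these letters and not of a bound site.

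Other genes for functional landmarks of the large subunit overlapped between the groups. Mrpl12, the stalk protein that recruits translation factors, had 64.1 and 35.8 FPKM with mock and 41.6 and 32.8 FPKM with DKK2 treatment (-0.37 ± 0.37). Control replicate 1 alone was high, and without it the estimate was 0.05. Mrpl10, which carries Mrpl12 at the base of the stalk, gave 43.7 and 36.6 FPKM without DKK2 and 37.6 and 43.8 FPKM with it. Mrpl11, also at the stalk base, had 57.6 and 46.5 FPKM in control and 60.8 and 34.5 FPKM in treated cells. The higher value of Mrpl10 was in replicate 1 of the controls and replicate 2 of the DKK2 group, and the values of Mrpl11 were higher in replicate 1 of both groups. Mrpl1, the protein of the stalk beside the tRNA exit, stood at 12.7 and 14.1 FPKM without DKK2 and at 21.5 and 9.70 FPKM with it. Mrpl3 had 67.3 and 60.3 FPKM in control and 73.1 and 45.1 FPKM in treated cells. Mrpl44, which resembles an RNase, gave 31.9 and 27.4 FPKM without DKK2 and 30.6 and 25.7 FPKM with it. Mrpl55 had 24.2 and 14.2 FPKM without and 13.5 and 18.04 FPKM with DKK2. In Mrpl1 and Mrpl3 the DKK2 libraries enclosed the controls.

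Small subunit genes with known roles overlapped too. Mrps12, the counterpart of a bacterial protein of the decoding site, gave 73.0 and 65.2 FPKM in control and 81.6 and 61.5 FPKM in DKK2-treated cells. Mrps2 stood at 24.5 and 23.4 FPKM without DKK2 and at 24.8 and 18.5 FPKM with it, and Mrps15, an rRNA-binding protein, at 60.6 and 62.6 FPKM in control and 83.9 and 53.9 FPKM in treated cells. In each of these the DKK2 libraries enclosed the controls, with replicate 1 the highest. Mrps16 and Mrps22, both mutated in human mitochondrial disease, were at 110 and 87.3 FPKM (Mrps16) and 24.4 and 26.9 FPKM (Mrps22) in the controls. With DKK2 the values were 127 and 96.9 FPKM for the first and 31.5 and 17.4 FPKM for the second, highest in replicate 1. Mrps30, placed in the large subunit by structures despite its symbol, had 25.6 and 31.1 FPKM in control and 46.3 and 24.8 FPKM in treated cells (0.26 ± 0.37). Without DKK2 replicate 1 its estimate was -0.18.

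Some genes of the family could not be read with confidence because of gene copies. Mrpl23 was listed at only 0.233 and 0.284 FPKM in the controls and 0.766 and 0.810 FPKM with DKK2, below the filter, while its processed copy Mrpl23-ps1 was listed at 61.0 and 44.3 FPKM without and 41.0 and 50.6 FPKM with DKK2. The sum of both rows overlapped between the groups, at 61.2 and 44.6 FPKM in control and 41.8 and 51.4 FPKM in treated cells. Mrps36, whose product is reported as a part of the oxoglutarate dehydrogenase complex, was listed at 0.862 and 0.727 FPKM without and 0.0533 and 0.359 FPKM with DKK2. At DKK2 replicate 1 this is about the worth of 1 fragment of a 1 kb transcript. Its copies Mrps36-ps1 and Mrps36-ps2 were listed at 2.78 to 4.61 FPKM and 1.71 to 6.69 FPKM. The family member Mrpl48 (40.6 and 24.3 FPKM against 32.6 and 35.7 FPKM) also has a listed copy, Mrpl48-ps, at 36.05 to 50.4 FPKM. The sources used here do not give how fragments were shared between a gene and its copies, so the split is uncertain.

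Large and small subunit genes were compared as groups. The median log2 fold change was -0.03 for 46 large subunit genes (24 lower, 22 higher) and -0.11 for 28 small subunit genes (19 lower, 9 higher), a difference of 0.08. Both DKK2 libraries were below both controls in 3 large (6.52%) and 5 small (17.9%) subunit genes, beside 14.8% of all rows tested. Per library, the mean log2 level of the large subunit minus that of the small was 0.003 and -0.09 without DKK2, against 0.006 and 0.04 with it. The groups did not overlap, but their nearest values were almost equal and the controls were farther apart than the DKK2 libraries. Without control replicate 2, DKK2 replicate 1 or DKK2 replicate 2 the difference between the subunit medians was 0.009, 0.012 and 0.009. Counting Mrps18a and Mrps30 with the large subunit and leaving Mrps36 out gave medians of 0.001 (48 genes) and -0.11 (26 genes), and per-library differences of -0.06 and -0.10 in the controls and 0.02 and 0.01 with DKK2. In this assignment too the DKK2 libraries were above the controls. Genes with a bacterial counterpart had a median of -0.06 (47 genes, 26 lower) and mitochondria-specific ones -0.09 (27 genes, 17 lower). The first of these classes was the more abundant, with a median mean level of 42.7 FPKM against 31.9 FPKM.

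The family moved together between libraries of the same group. Control replicate 2 was below control replicate 1 in 66 of the 74 genes (89.2%), with a median log2 difference of -0.43, where 57.8% of all rows tested went that way (median -0.08). DKK2 replicate 2 was below DKK2 replicate 1 in 53 of the 74 (71.6%, median -0.36), where 45.2% of all rows did so (median 0.07). The highest value of a gene was in control replicate 1 in 41 cases, in DKK2 replicate 1 in 31, in DKK2 replicate 2 in 2 and in control replicate 2 in none. The lowest was in DKK2 replicate 2 in 35, in control replicate 2 in 26 and in DKK2 replicate 1 in 13. The sign of the comparison depended on which library was set beside which. DKK2 replicate 1 had a median log2 difference of -0.07 from control replicate 1 and 0.34 from control replicate 2, and DKK2 replicate 2 had -0.39 and -0.06. Leaving out a library turned the median of all 74 genes to 0.12 (without control replicate 1) or 0.10 (without DKK2 replicate 2), and to -0.22 (without control replicate 2) or -0.20 (without DKK2 replicate 1). The count of negative estimates then ran from 19 to 63 of 74. Genes with both groups apart and DKK2 lower numbered 8 without control replicate 1 (23.8% of all rows tested), 41 without control replicate 2, 42 without DKK2 replicate 1 and 14 without DKK2 replicate 2, where the last 3 stand beside 37.5%, 34.2% and 41.8% of all rows tested. Genes with DKK2 higher numbered 26 without control replicate 1, 1 without control replicate 2, 3 without DKK2 replicate 1 and 31 without DKK2 replicate 2, beside 25.5%, 22.7%, 32.7% and 32.6% of all rows.

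**Figure D4:**
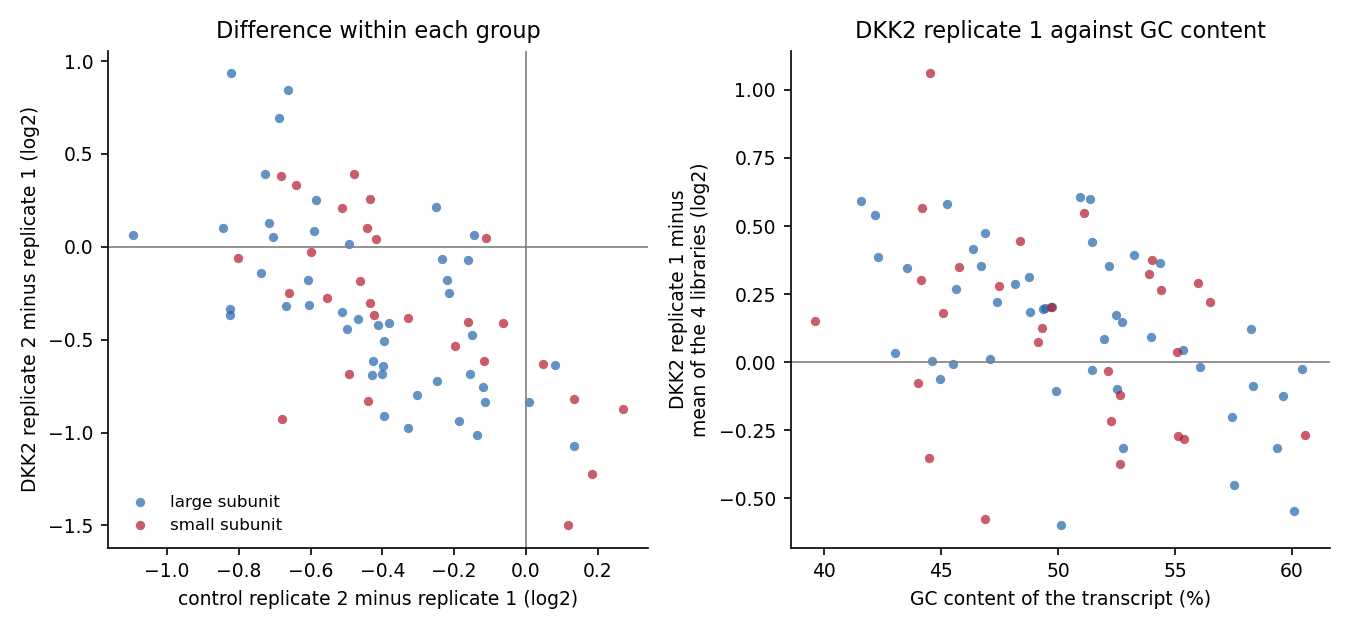
Left, log2 difference of replicate 2 minus replicate 1 in the controls (x axis) and in the DKK2 group (y axis) for each of the 74 genes, blue large and red small subunit; 66 points lie left of 0 and 53 below 0. Right, log2 deviation of DKK2 replicate 1 from the mean of the 4 libraries against the GC content of the transcript in percent, where the Spearman correlation is -0.41.

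Libraries differed in how evenly they were apart over the family. The log2 difference between DKK2 replicate 1 and control replicate 1 had a standard deviation over the 74 genes of 0.51, that between DKK2 replicate 1 and DKK2 replicate 2 was 0.48, and that between DKK2 replicate 1 and control replicate 2 was 0.35. Control replicate 1 and DKK2 replicate 2 differed more evenly, with a standard deviation of 0.26, and control replicate 2 had 0.28 to the other control and 0.30 to DKK2 replicate 2. Over 10126 protein-coding genes control replicate 1 had the larger values, 0.69 to 0.82, against 0.44 to 0.67 between the other libraries. Base composition moved with the libraries. Across the 74 genes, which are not independent replicates and share their libraries, the deviation of DKK2 replicate 1 from the gene's mean had a Spearman correlation of -0.41 with the GC content of the longest coding transcript. The values were 0.47 for control replicate 1, -0.18 for control replicate 2 and 0.26 for DKK2 replicate 2. Over the 10126 protein-coding genes the same 4 values were -0.46, 0.38, -0.37 and 0.47. The log2 fold change itself had a Spearman correlation with GC content of -0.32 over the 74 genes and -0.09 over the 10126. Mrps18c, Mrps30 and Mrpl33, which were high in DKK2 replicate 1, have 44.5%, 44.2% and 46.9% GC, and Mrpl2, which was lowest there, 57.5%. Mrps5 and Mrpl18, also lowest there, have 46.9% and 50.1%. After a correction of each library for GC content and length, chosen after the data were seen, 61 of the 74 estimates were negative (60.7% over all rows tested). The medians were then -0.18 for the large and -0.26 for the small subunit, beside -0.08 over all rows tested. Both DKK2 libraries were then below both controls in 16 of the 74 (21.6%), as in 21.6% of all rows tested, and 0 of the 74 were called by limma (smallest adjusted p = 0.91, 1 gene at an unadjusted p under 0.05). The correction reached only rows with a GC value, 82.5% of all rows tested and all 74 genes. The corrected values over all rows tested thus include uncorrected rows. The part of base composition in the comparison was not tested.

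Of 7 mitoribosome proteins whose names fall outside the symbol rule, 0 were called. Negative estimates were found for 5 (71.4%, beside 56.4% of all rows tested), and the median was -0.06. Dap3, a GTP-binding protein of the small subunit, stood at 43.3 and 36.2 FPKM without and 51.8 and 37.3 FPKM with DKK2. Ict1, a peptidyl-tRNA hydrolase built into the large subunit, gave 85.2 and 58.8 FPKM without DKK2 and 109 and 83.1 FPKM with it (0.42 ± 0.31). The estimate for Ict1 was 0.16 without control replicate 2, 0.23 without DKK2 replicate 1 and 0.69 without control replicate 1. Gadd45gip1 had 7.85 and 5.85 FPKM in control and 5.49 and 5.50 FPKM in treated cells (-0.26 ± 0.28). Gadd45gip1 was the 1 of the 7 (14.3%) with both DKK2 libraries below both controls, beside 14.8% of all rows tested. Its estimate was -0.08 without control replicate 1 and -0.45 without control replicate 2. Without DKK2 replicate 2 the median of the 7 was 0.25.

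The factors that work with the ribosome showed no call either. Of 16 mitochondrial translation factors tested, of 18 listed, 9 had negative estimates (56.25%, beside 56.4% of all rows tested) and 7 positive ones. Their median was -0.08, with 0 called. Both DKK2 libraries were below both controls in 2 of the 16 (12.5%) and above in 1 (6.25%), beside 14.8% and 11.8% of all rows tested. The elongation factor gene Gfm1 had 51.3 and 47.9 FPKM with mock and 49.9 and 37.6 FPKM with DKK2 treatment. Tufm, also an elongation factor gene, was listed at only 3.54 and 3.34 FPKM against 2.31 and 4.14 FPKM. Gfm2, which recycles ribosomes, was 1 of the 2 lower genes, at 13.8 and 13.7 FPKM without DKK2 and 10.3 and 10.8 FPKM with it (-0.36 ± 0.24). Mtrf1l, a release factor, had 15.6 and 14.5 FPKM in control and 26.0 and 14.7 FPKM in treated cells (0.36 ± 0.34), high in DKK2 replicate 1 alone. Without control replicate 1 the median of the list was 0.13.

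Of 28 assembly and rRNA modification factors tested, 22 had negative estimates (78.6%, beside 56.4% of all rows tested), with a median of -0.11 and 0 called. Both DKK2 libraries were below both controls in 5 of the 28 (17.9%) and above in 1, beside the 14.8% and 11.8% of all rows given above. Wbscr16, also called Rcc1l, gave 13.6 and 9.27 FPKM in control and 6.11 and 7.66 FPKM in DKK2-treated cells (-0.64 ± 0.31). Dhx30, an RNA helicase of the mitochondrial RNA granule, gave 35.3 and 34.9 FPKM without DKK2 and 20.1 and 27.2 FPKM with it (-0.57 ± 0.27). In Dhx30 the controls were nearly equal and both DKK2 libraries were lower. The estimates were -0.39 for Wbscr16 without control replicate 1 and -0.35 for Dhx30 without DKK2 replicate 1. The median of this list depended on the controls, at 0.04 without control replicate 1 and -0.33 without control replicate 2.

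Of the genes for mitochondrial transcription, DNA maintenance and their nuclear regulators, 13 of 18 tested had negative estimates (72.2%, beside 56.4% of all rows tested), with a median of -0.11 and 0 called. Both DKK2 libraries were below both controls in 4 (22.2%) and above in 2 (11.1%), beside 14.8% and 11.8% of all rows tested. The median ran from -0.22 without control replicate 2 to 0.02 without DKK2 replicate 2. Gabpa, the ETS factor named above, stood at 81.5 and 85.4 FPKM without and 65.1 and 58.5 FPKM with DKK2 (-0.43 ± 0.24), and both DKK2 libraries were lower. Nrf1 stood at 42.3 and 27.9 FPKM without DKK2 and at 20.6 and 29.7 FPKM with it (-0.46 ± 0.34), with overlapping groups. Its estimate was -0.17 with control replicate 1 left out and -0.21 with DKK2 replicate 1 left out, and -0.75 and -0.71 when the second control or DKK2 library was left out. Myc had 64.6 and 45.1 FPKM against 57.6 and 52.0 FPKM, with the DKK2 libraries between the controls. Tfam, which packs mitochondrial DNA and starts its transcription, had 93.5 and 88.0 FPKM in control and 135 and 78.1 FPKM in treated cells. The RNA polymerase gene Polrmt had 10.1 and 9.45 FPKM without and 7.68 and 9.03 FPKM with DKK2. Polg2, the accessory subunit of the mitochondrial DNA polymerase, was higher in both DKK2 libraries, at 2.58 and 4.15 FPKM in control and 6.76 and 5.66 FPKM in treated cells (0.74 ± 0.33). Without control replicate 1 its estimate was 0.48.

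Values for the cytosolic ribosome and the respiratory chain are set beside these without a test between the lists, and 0 genes of either were called. Cytosolic ribosomal protein genes had a median log2 fold change of 0.05 (81 tested, 37 lower), with both DKK2 libraries below both controls in 4.94% and above in 14.8%, where 14.8% and 11.8% of all rows tested did so. That median was 0.23 without control replicate 1, -0.05 without control replicate 2, -0.01 with quantile normalization and -0.13 with the GC and length correction. Nuclear genes of the respiratory chain had a median of -0.02 (77 tested, 39 lower), with 3.90% below and 9.09% above. Here the median ran from -0.21 without control replicate 2 to 0.20 without control replicate 1, and was -0.19 with the GC and length correction. The step between the controls was seen there too: control replicate 2 was below control replicate 1 in 77.8% of the cytosolic ribosomal protein genes and 83.1% of the respiratory chain genes, beside 89.2% of the mitochondrial ribosomal protein genes.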

How the data were processed

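RNA of 2 control and 2 DKK2 libraries was measured by RNA-seq, with strand-specific total RNA libraries per the labels' protocols. The authors deposited 1 table of FPKM values, per the file headers (the table's name says RPKM). Tools listed in the submitters' processing notes are edgeR, Cuffdiff 2.1.0, TopHat2 2.1.0 and CASAVA, with build mm9 and no role for each. The annotation counted and the use of strand are not given in the sources used here. Each value column matched 1 sample by name. FPKM are not counts, so no count model was used, and steps among the lowest values gave the libraries' depth relative to each other.

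Where a symbol stood on several rows, the row of highest mean was used. Rows with a mean of at least 1 FPKM were tested on log2(FPKM + 1) with limma 3.58.1 in R 4.3.3 (trend on the mean level, two-sided, Benjamini-Hochberg over the 12275 rows tested, threshold 0.05). The fit was checked on simulated data with raised levels, independent noise and planted changes larger than any estimate of the 74 genes. That check does not cover changes of the size seen here. No exact permutation test was run, since 2 libraries a group are too few for it to reach the threshold. GC content and length come from the longest coding transcript in GENCODE M21 by symbol (82.5% of rows tested and all 74 genes). Genes named are those whose groups do not overlap, the highest and lowest of each subunit, genes below the filter, a list of genes with known roles and the farthest in each list of related factors (the cytosolic ribosome and respiratory chain by counts only). Mrpl48 is named outside this for its listed copy. The genes and lists were chosen with earlier results of these data known, so p-values were adjusted over all rows only. Alternatives changed the pseudocount, filter, scaling, variance prior, replicate block, GC correction and the libraries used.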

Additional observations from a re-analysis of the deposited data

How the results depend on the processing

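With 2 libraries a group, a fold change here is known to about 0.32 on the log2 scale (median SE), so shifts of the size seen in most of the genes were not detectable. The 74 genes gave 0 calls under every alternative run, and the sign of 23 of 25 genes whose fold change is printed held in each alternative that kept all libraries. The exceptions came with the GC and length correction, with and without the replicate block: Mrps18a at -0.115 and Mrpl33 at -0.084. Over all rows tested the calls were 8 with the replicate block, 0 with no filter on low values (949 rows at an unadjusted p under 0.05 in limma), 0 with the GC and length correction and replicate block (376 rows), and 0 to 0 on leaving out a library (150 to 855 rows).

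The count of mitochondrial ribosomal protein genes with both DKK2 libraries below both controls ran from 8 to 42 on leaving out a library and was 16 with the GC and length correction, with or without the block. The count above ran from 1 to 31, was 2 with no filter or with quantile normalization, and 0 with the GC and length correction, with or without the block. Negative estimates ran from 19 to 63. Median centring, which moved the median of all rows from -0.05 to 0.01, and quantile normalization turned the large subunit median from -0.03 to 0.04 and 0.005. With centring 48.3% of all rows and 37 of the 74 genes were negative, instead of 56.4% and 43. On leaving out a library, medians ran from -0.175 to 0.127 for translation factors, from -0.333 to 0.043 for assembly factors, from -0.261 to 0.252 for the proteins outside the symbol rule and from 0.009 to 0.051 for large minus small subunit. Fold changes that turned sign there ran from -0.218 to 0.314 (Mrps18a), -0.127 to 1.371 (Mrps18c), -0.779 to 0.045 (Mrpl12), -0.775 to 0.069 (Mrpl18), -0.081 to 0.606 (Mrpl33), -0.707 to 0.095 (Mrps21), -0.179 to 0.693 (Mrps30) and -0.029 to 0.752 (Mtrf1l). The causes were not tested.

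The replicate 1 minus replicate 2 differences of the control and DKK2 groups had a Pearson correlation of 0.01 over all rows tested. Over the 74 genes, which share their libraries, it was -0.61. These values cannot settle whether libraries of the same replicate number belong together. The replicate block changed no call among the 74 genes. The GC and length correction was chosen after seeing the data.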
